A study of Mus musculus with 6 samples.

Results

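The group of genes described here holds 32 genes of glycolysis, lactate handling and the response to low oxygen, chosen by name for their known roles, with earlier results of these data known. It was followed in muscle satellite cells of 3 mouse genotypes by RNA sequencing. Of 54018 gene identifiers with a transcript in the files, 17027 had enough reads to be tested, and 31 of the 32 genes were among them. The gene left out, Aldoc, which encodes the aldolase of brain and some other tissues, had 0.0511 to 0.109 CPM, read counts scaled to the normalised library size, in the 6 libraries.

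The 3 groups had 2 libraries each. They were labelled Tdt control, Jmjd3 KO and Utx KO, and the series title marks both knockouts as scKO and the third group as wild type. All 6 libraries came from adult C57BL/6 mice whose tibialis anterior and gastrocnemius muscles had been injected with cardiotoxin, a snake toxin that kills muscle fibres. The satellite cells, the stem cells of muscle, were sorted by fluorescence 30 h after that injury, so the control was injured too and no group shows uninjured muscle. Jmjd3 and Utx are names for the proteins of Kdm6b and Kdm6a, enzymes that remove methyl groups from lysine 27 of histone H3. The driver of the deletions, the alleles and the number of animals per library are not given in the sources used here. Nothing in the labels says that the libraries of a group came from separate animals, so p-values measure only the spread between these samples.

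Glycolysis converts glucose to pyruvate in the cytosol and yields ATP without oxygen, and lactate dehydrogenase and the monocarboxylate transporters then turn pyruvate into lactate and move it across the plasma membrane. Hypoxia-inducible factor 1 (HIF-1) is a transcription factor whose alpha subunit is marked for destruction by prolyl hydroxylases when oxygen is present. When oxygen falls, the factor binds short DNA elements near glycolytic genes and near genes for blood vessel growth, mitophagy and collagen modification. Satellite cells leaving quiescence after injury are known to raise glycolysis.

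The libraries held 53750675 to 77675388 estimated reads. In the library check, Kdm6a had 7.70 and 7.40 CPM in Utx KO against 32.9 and 34.0 CPM in Tdt control, and Kdm6b had 15.9 and 16.6 CPM in Jmjd3 KO against 29.9 and 22.8 CPM in Tdt control. The Kdm6a difference had a log2 fold change of -2.15 ± 0.06 with an adjusted p of 1.06e-05, and the Kdm6b difference one of -0.70 ± 0.12 with an adjusted p of 0.0249, both from edgeR's quasi-likelihood test with Benjamini-Hochberg adjustment. Without Jmjd3 KO replicate 1 or 2 the adjusted p of Kdm6b was 0.167 or 0.122. Kdm6b had 23.0 and 22.2 CPM in Utx KO. Its log2 fold change in Jmjd3 KO against Utx KO, -0.48 ± 0.12, was not called (edgeR adjusted p = 0.0506). All 10 satellite cell markers were detected, with a summed level of 3940.2 to 4280.6 CPM, and Pax7, the defining satellite cell factor, had 135 to 149 CPM. Transcripts of mature fibres summed to 6130.3 to 9280.3 CPM and were the most abundant other marker list, whereas the 8 lymphoid markers summed to at most 0.320 CPM. No marker of any list was at 0 reads in all 6 libraries.

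Promoter sequences of 5 genes whose levels differed between genotypes are shown first, because their promoters carry the core letters of the HIF-1 binding element. The search looked for ACGTG and GCGTG on both strands in the 250 bases before each RefSeq start in GRCm38.p6. In each sequence below, written 5′ to 3′ on the strand of the gene, capitals mark every match, and a match on the opposite strand reads as CACGT or CACGC. Positions are counted back from the base just before the start, which is -1. Bases that GENCODE M21 places in an exon were left out, so the Ddit4 stretch ends at -65 and the Slc16a3 stretch at -15.
Adm, chr7:110627407-110627656, plus strand: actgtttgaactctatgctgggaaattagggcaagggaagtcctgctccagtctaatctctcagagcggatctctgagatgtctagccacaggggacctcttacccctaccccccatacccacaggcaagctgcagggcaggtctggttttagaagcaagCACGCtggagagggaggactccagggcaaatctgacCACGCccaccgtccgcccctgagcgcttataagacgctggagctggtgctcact
Ddit4, chr10:59951835-59952020, minus strand: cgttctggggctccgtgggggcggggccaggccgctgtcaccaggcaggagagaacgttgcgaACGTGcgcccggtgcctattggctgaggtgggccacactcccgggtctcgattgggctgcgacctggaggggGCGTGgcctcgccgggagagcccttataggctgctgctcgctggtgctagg
Hk2, chr6:82774455-82774704, minus strand: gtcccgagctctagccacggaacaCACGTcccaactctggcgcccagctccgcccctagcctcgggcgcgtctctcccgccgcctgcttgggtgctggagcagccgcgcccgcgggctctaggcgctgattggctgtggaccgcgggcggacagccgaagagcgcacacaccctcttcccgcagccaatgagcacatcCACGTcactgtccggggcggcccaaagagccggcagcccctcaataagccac
P4ha1, chr10:59323046-59323295, plus strand: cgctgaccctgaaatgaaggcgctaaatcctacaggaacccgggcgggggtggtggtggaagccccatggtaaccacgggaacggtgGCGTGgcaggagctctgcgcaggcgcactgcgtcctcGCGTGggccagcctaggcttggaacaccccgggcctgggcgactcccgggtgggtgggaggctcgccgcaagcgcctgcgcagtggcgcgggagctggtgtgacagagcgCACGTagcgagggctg
Slc16a3, chr11:120948817-120949052, plus strand: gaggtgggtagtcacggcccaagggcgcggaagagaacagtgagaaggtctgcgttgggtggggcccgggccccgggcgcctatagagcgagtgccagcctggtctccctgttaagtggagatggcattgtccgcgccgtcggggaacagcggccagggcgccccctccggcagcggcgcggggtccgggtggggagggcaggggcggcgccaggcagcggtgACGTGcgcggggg

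The Adm promoter held matches beginning at -90 and -54, and the Ddit4 promoter at -187 and -115. Among the other sequences, Hk2 had matches at -226 and -52, and P4ha1 at -163, -126 and -16. Slc16a3 had 1 match in the stretch shown, at -27, and another at -14 just outside it. RefSeq promoters were found for 30 of the 32 genes, all but Ndrg1 and Bnip3l, and 28 of the 30 (93.3%) held at least 1 match. The same letters were in 41.5% of the 27025 genes in the promoter table and in 59.8% of the 11288 tested genes with an entry. All 7 genes with an entry that were called in some comparison had a match, but so did most of the genes that were not called. A match is a description of letters in the sequence and does not show that the factor binds there.

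The genes spanned a wide range of abundance. On the TPM scale, which divides by transcript length and so allows levels of different genes to be compared, Gapdh had the highest mean level over the 6 libraries, 1672 TPM. It was followed by Aldoa at 883, Ldha at 581 and Pkm at 562 TPM, all genes of the glycolytic core. The glucose transporter Slc2a1, at 15.2 TPM, and the hexokinases Hk2 and Hk1, at 28.1 and 26.2 TPM, lay well below Gpi1, the next enzyme, at 123 TPM. Hif1a had 48.3 TPM and Vegfa 40.7 TPM, whereas the regulators Pfkfb3, Pdk1 and Pfkfb4 had 5.34, 3.02 and 2.35 TPM. Ankrd37, at 1.03 TPM, was the lowest of the tested genes.

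**Figure D1:**
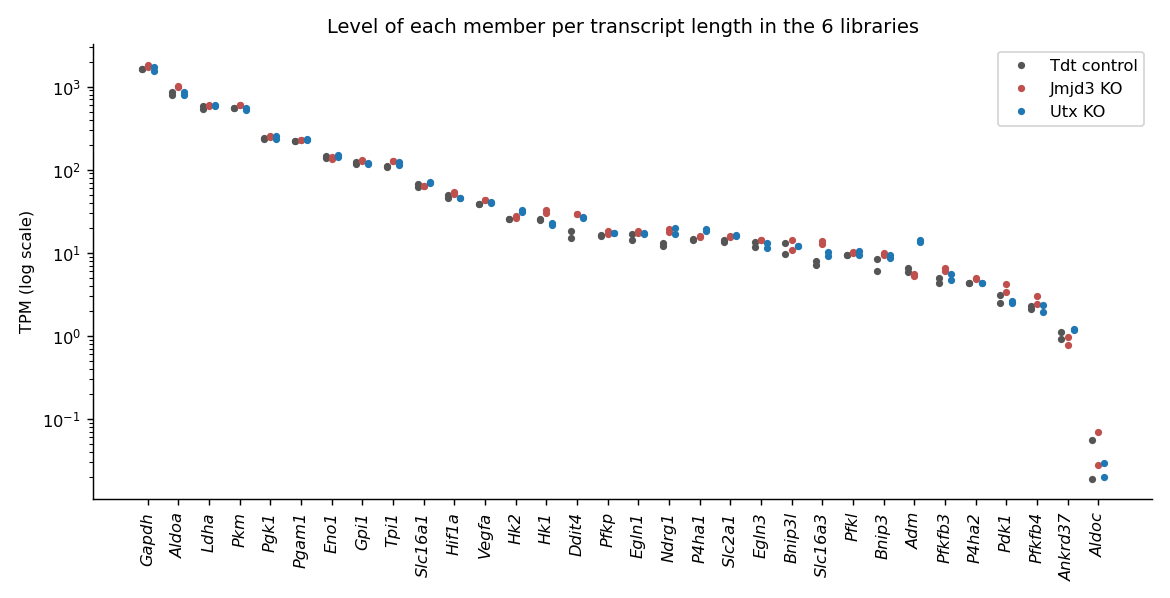
TPM of each gene on a log axis, with 1 point per library coloured by genotype and genes ordered by their mean level. The means run from 1672 TPM for Gapdh to 1.03 TPM for Ankrd37 among tested genes, with the untested Aldoc far below, and the Utx KO points of Adm stand above its other points.

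In Jmjd3 KO against Tdt control, 3 of the 31 tested genes rose and none fell, 9.68% of them against 2.95% of all 17027 genes called in that comparison (1.94% higher and 1.02% lower). The 3 were Slc16a3, Ddit4 and Ndrg1, a lactate transporter and a pair of stress genes, and no glycolytic enzyme was called. Of the 12 enzymes tested, 2 (Hk1 and Aldoa, 16.7%) had an unadjusted edgeR p under 0.05, beside 19.9% of all genes. DESeq2 called both higher. In Utx KO against Tdt control, 5 rose and none fell, 16.1% against 1.7% of all genes (0.781% higher and 0.916% lower). These were Adm, Ddit4, Ndrg1, Hk2 and P4ha1. Leaving out any 1 of the 6 libraries took the count in Utx KO to 1 or 2, and DESeq2 gave 6 in Jmjd3 KO, all higher, and 5 higher and 1 lower in Utx KO. A gene was called at an adjusted p under 0.05 in edgeR's quasi-likelihood test, and fold changes are on the log2 scale, ± SE. Over all genes DESeq2 called 1035 in Jmjd3 KO and 656 in Utx KO, where edgeR called 503 and 289. Both knockouts were compared with the same 2 control libraries. On GRCm38 in GENCODE M21 the genes called in some comparison lie at chr7:110627661-110629820 (Adm), chr10:59949669-59951834 (Ddit4), chr15:66929318-66969640 (Ndrg1), chr6:82725025-82774454 (Hk2), chr10:62268855-62379908 (Hk1), chr10:59323296-59373304 (P4ha1), chr11:120948480-120960868 (Slc16a3) and chr3:104638668-104658462 (Slc16a1).

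Small shifts were common in either knockout. The median log2 fold change of the 31 genes was 0.07 in Jmjd3 KO and 0.07 in Utx KO, beside -0.00485 and -0.00209 over all genes tested. In Jmjd3 KO 24 genes lay above 0 and 7 below, and in Utx KO 26 above and 5 below. At an unadjusted p under 0.05 there were 10 genes in each (32.3%), beside 19.9% of all genes in Jmjd3 KO and 16.2% in Utx KO. In Jmjd3 KO the 2 libraries lay above both control libraries for 18 genes and below for 4, where 26.2% and 25.5% of all genes did so. In Utx KO they lay above for 17 and below for 1, where 22.3% and 23.3% of all genes did so.

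The knockouts were also compared with each other. Of the 31 genes, 2 were higher in Jmjd3 KO (Hk1 and Slc16a3) and 4 were lower (Hk2, Slc16a1, Adm and P4ha1), 19.4% against 7.95% of all genes (5.08% higher and 2.87% lower). Without Jmjd3 KO replicate 1, Jmjd3 KO replicate 2 or Utx KO replicate 1, the count of 6 fell to 2, 1 and 1. The median was 0.01, with 17 genes above 0 and 14 below. The 2 Jmjd3 KO libraries lay above both Utx KO libraries for 10 genes and below for 11, beside 28.5% and 28.7% of all genes, and 9 genes had an unadjusted p under 0.05, beside 25.5% of all genes.

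Cell type markers moved in the same comparisons. In Jmjd3 KO against the control, 5 of the 13 tested neutrophil markers, 4 of 16 mature fibre markers and 3 of 16 macrophage and monocyte markers were called higher, and 2 of 10 satellite cell markers were called higher and 1 lower. In Utx KO, 3 of the 10 satellite cell markers were called higher and 1 lower, 1 neutrophil marker was called higher, and 1 macrophage and monocyte marker and 1 mature fibre marker were called lower. By sign alone, all 7 mural and 9 of 10 endothelial markers had a log2 fold change below 0 in Utx KO. So did 8 of 10 fibro-adipogenic and 13 of 16 macrophage and monocyte markers. In these lists, in that order, 5, 5, 6 and 11 markers had an unadjusted edgeR p under 0.05, beside 16.2% of all genes. In Jmjd3 KO 6 of 7 mural and 9 of 10 endothelial markers were below 0. In these lists 0 and 1 markers had an unadjusted edgeR p under 0.05, beside 19.9% of all genes. The same knockout had 7 of 10 fibro-adipogenic and 12 of 16 macrophage and monocyte markers above 0, and 3 and 5 passed that p. All 16 mature fibre and 11 of 13 neutrophil markers were above 0 in Jmjd3 KO, and 12 and 11 passed it. In Utx KO 4 of 16 mature fibre and 9 of 13 neutrophil markers were above 0, and 1 and 10 passed it. Of all 17027 genes, 8604 were below 0 in Utx KO and 8672 in Jmjd3 KO. Between the knockouts, 8 of 16 macrophage and monocyte and 8 of 16 mature fibre markers were called higher in Jmjd3 KO. So were 3 of 13 neutrophil and 3 of 10 fibro-adipogenic markers, while 1 of 10 satellite cell markers was called higher and 2 lower. Of all genes, 2.95% were called in Jmjd3 KO, 1.7% in Utx KO and 7.95% between the knockouts. The part of these shifts in the levels of the called genes, Ddit4, Ndrg1, Adm and Slc16a3 among them, was not tested.

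**Figure D2:**
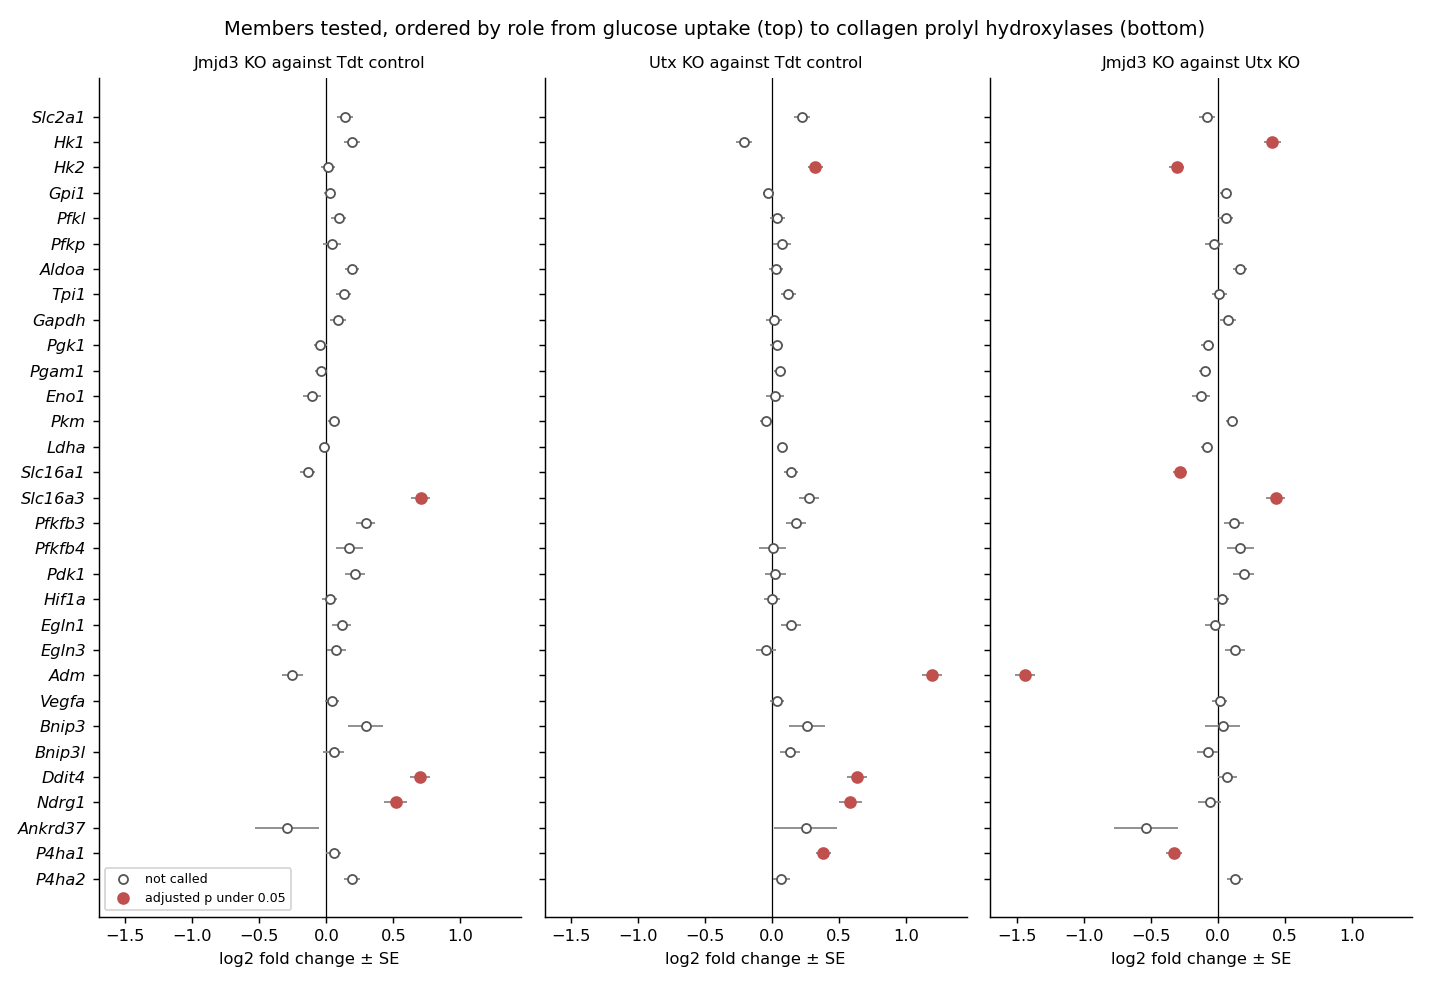
Log2 fold change ± SE of each tested gene in the 3 comparisons, with filled points where the adjusted p was under 0.05. Most points lie close to 0, and Adm in Utx KO, at 1.19, is the farthest from it in a comparison with the control.

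Adm encodes adrenomedullin, a secreted peptide that widens blood vessels and is a known HIF target. It had 9.83 and 10.7 CPM in Tdt control, 8.86 and 8.30 CPM in Jmjd3 KO and 23.9 and 22.8 CPM in Utx KO. Both Utx KO libraries were above the other 4, which lay between 8.30 and 10.7 CPM, and both Jmjd3 KO libraries were below the controls. In Utx KO the level was 2.28-fold that of the control, a log2 fold change of 1.19 ± 0.07 with an edgeR adjusted p of 0.00140. In Jmjd3 KO the change was -0.25 ± 0.08 with an adjusted p of 0.127 and was not called. The direct comparison of the knockouts gave -1.44 ± 0.08 with an adjusted p of 1.56e-04, the largest difference of the group. The Adm calls in Utx KO against the control and between the knockouts were kept under all 12 other settings and with each of the 6 libraries left out. These are bulk libraries, in which more cells with a transcript and more RNA per cell cannot be told apart.

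Vegfa, the main growth factor for blood vessels and the other secreted HIF target of the list, had 162 and 153 CPM in Tdt control, 165 and 159 CPM in Jmjd3 KO and 160.0 and 163 CPM in Utx KO. The groups overlapped, and the log2 fold changes of 0.04 ± 0.05 in Jmjd3 KO and 0.03 ± 0.05 in Utx KO were not called. Their 95% intervals were -0.08 to 0.17 and -0.09 to 0.16. The transcript Vegfa-202 took 67.3% to 69.0% of Vegfa TPM in the 6 libraries and Vegfa-201 took 27.7% to 31.3%, with no group apart.

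Ddit4 encodes REDD1, which restrains the growth kinase mTORC1 under stress and is induced by low oxygen, glucocorticoids and DNA damage. It had 35.3 and 40.8 CPM in Tdt control, 62.4 and 61.4 CPM in Jmjd3 KO and 57.2 and 60.8 CPM in Utx KO. All 4 knockout libraries were above both controls, and the Jmjd3 KO libraries lay just above the Utx KO libraries. The log2 fold change was 0.70 ± 0.07 in Jmjd3 KO (edgeR adjusted p = 0.00448) and 0.63 ± 0.07 in Utx KO (adjusted p = 0.0156). Between the knockouts it was 0.07 ± 0.07 with an adjusted p of 0.612 and an interval of -0.10 to 0.24. The call in Jmjd3 KO was kept with each library left out, with an adjusted p of at most 0.0437. In Utx KO it was lost without Tdt control replicate 1 (0.0544), Utx KO replicate 1 (0.0799) or Utx KO replicate 2 (0.0664).

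Ndrg1, a stress-responsive gene induced by low oxygen and linked to differentiation, had 55.9 and 50.9 CPM in Tdt control, 74.1 and 78.7 CPM in Jmjd3 KO and 85.9 and 73.9 CPM in Utx KO. Again all 4 knockout libraries lay above both controls, and the knockouts overlapped each other. Its log2 fold changes were 0.52 ± 0.09 in Jmjd3 KO and 0.58 ± 0.09 in Utx KO, with edgeR adjusted p of 0.0249 and 0.0272. Leaving out Tdt control replicate 1, Tdt control replicate 2, Jmjd3 KO replicate 1 or Jmjd3 KO replicate 2 ended the call in Jmjd3 KO (adjusted p 0.0730, 0.0989, 0.119 and 0.131). Leaving out any 1 of the 6 libraries ended it in Utx KO, with adjusted p from 0.0501 to 0.139. Neither Ndrg1 call was made with transcript length offsets (0.0600 and 0.0548).

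The remaining stress genes did not pass the test. Bnip3 and Bnip3l encode mitochondrial receptors that mark mitochondria for removal, and Ankrd37 is a small HIF target of unsettled function. Bnip3 had 9.63 and 13.1 CPM in Tdt control, 13.8 and 14.0 CPM in Jmjd3 KO and 13.2 and 13.9 CPM in Utx KO, and its 2 control libraries differed more from each other than the higher of them did from any knockout library. Its log2 fold changes were 0.29 ± 0.13 in Jmjd3 KO and 0.26 ± 0.13 in Utx KO. Bnip3l had 22.0 and 25.9 CPM in Tdt control, 24.9 and 24.8 CPM in Jmjd3 KO and 25.9 and 26.6 CPM in Utx KO, with changes of 0.05 ± 0.08 and 0.13 ± 0.08. Ankrd37 had 1.00 and 1.19 CPM in Tdt control, 1.01 and 0.776 CPM in Jmjd3 KO and 1.29 and 1.31 CPM in Utx KO, and its changes of -0.29 ± 0.24 and 0.25 ± 0.23 carried the widest errors of the group. Bnip3 and Bnip3l share 20.3% and 23.7% of their 31-base words with other annotated genes.

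P4ha1 and P4ha2 encode the catalytic subunits of collagen prolyl 4-hydroxylase, which hydroxylates collagen so that its triple helix is stable. P4ha1 had 60.1 and 59.1 CPM in Tdt control, 60.9 and 62.8 CPM in Jmjd3 KO and 74.7 and 80.6 CPM in Utx KO. Both Utx KO libraries were above the other 4, while Jmjd3 KO lay within 4 CPM of the control. The log2 fold change was 0.38 ± 0.06 in Utx KO with an edgeR adjusted p of 0.0285, 0.05 ± 0.06 in Jmjd3 KO with 0.660, and -0.33 ± 0.06 between Jmjd3 KO and Utx KO with 0.0180. The call in Utx KO ended without any 1 of the 6 libraries (log2 fold changes of 0.33 to 0.43). It also ended in the fit of only the 4 libraries compared (adjusted p 0.0525) and with a replicate block (0.0522). The call between the knockouts ended without any 1 of the 4 knockout libraries (log2 fold changes of -0.38 to -0.27). P4ha2 had 13.5 and 13.5 CPM in Tdt control, 15.5 and 15.3 CPM in Jmjd3 KO and 14.3 and 13.9 CPM in Utx KO and was called in no comparison, at 0.19 ± 0.06 in Jmjd3 KO and 0.07 ± 0.06 in Utx KO.

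**Figure D3:**
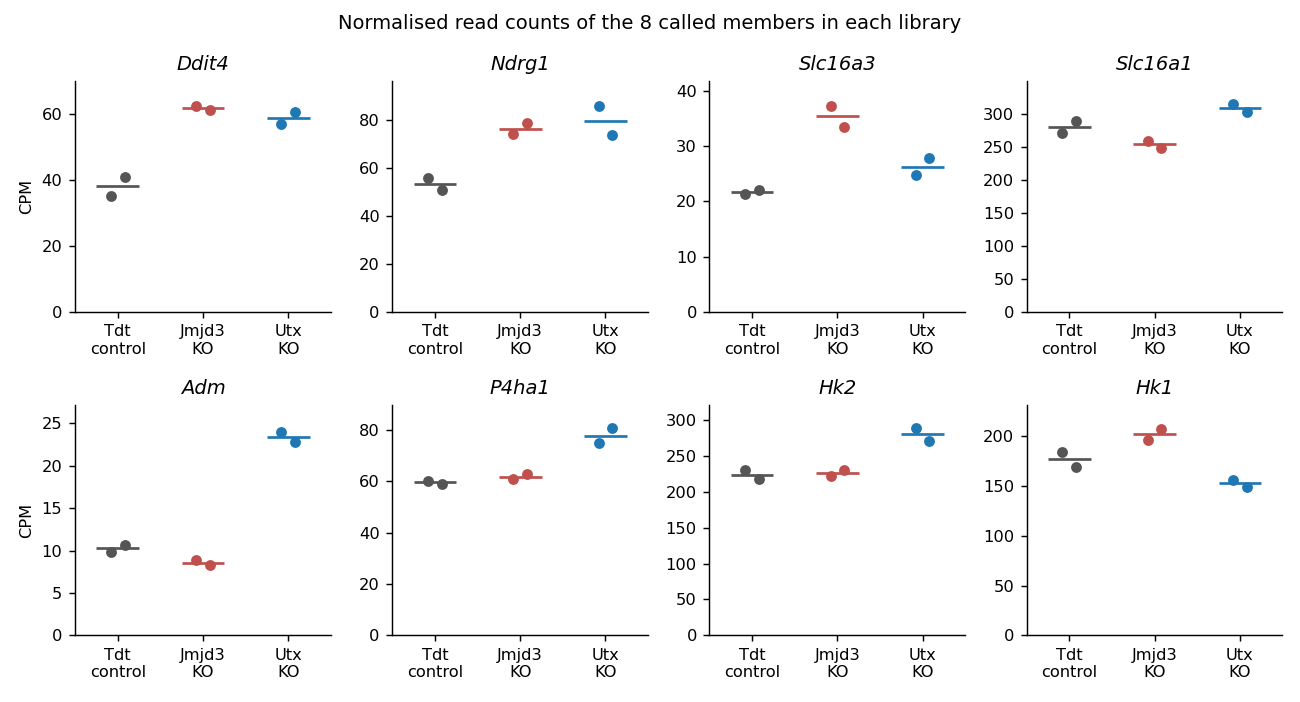
CPM of the genes called in at least 1 comparison, with 1 point per library, a line at each group mean and axes that start at 0. Adm and P4ha1 are high in the Utx KO libraries, Slc16a3 in the Jmjd3 KO libraries, and Ddit4 and Ndrg1 in all 4 knockout libraries.

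No HIF pathway regulator was called in any comparison. Hif1a, which encodes the oxygen-sensitive alpha subunit, had 197 and 216 CPM in Tdt control, 209 and 211 CPM in Jmjd3 KO and 209.6 and 203 CPM in Utx KO. Its log2 fold change was 0.02 ± 0.06 in Jmjd3 KO, with an interval of -0.11 to 0.16, and in Utx KO the interval was -0.13 to 0.13. The protein is regulated by its stability, which RNA sequencing does not measure. Egln1 and Egln3 encode the prolyl hydroxylases PHD2 and PHD3, which mark the alpha subunit and are themselves HIF targets. Egln1 had 60.0 and 67.5 CPM in Tdt control, 71.0 and 66.9 CPM in Jmjd3 KO and 67.7 and 72.6 CPM in Utx KO, with changes of 0.11 ± 0.07 in Jmjd3 KO and 0.14 ± 0.07 in Utx KO. Egln3 had 43.4 and 46.6 CPM in Tdt control, 48.1 and 46.7 CPM in Jmjd3 KO and 40.5 and 46.5 CPM in Utx KO, with changes of 0.07 ± 0.07 and -0.05 ± 0.07. Over these 3 genes and both comparisons with the control, the 95% intervals lay between -0.22 and 0.31.

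Glucose enters through GLUT1, the product of Slc2a1, which had 50.1 and 45.0 CPM in Tdt control, 52.5 and 52.2 CPM in Jmjd3 KO and 56.3 and 54.7 CPM in Utx KO. All 4 knockout libraries were above both controls, but the log2 fold changes of 0.14 ± 0.06 in Jmjd3 KO and 0.22 ± 0.06 in Utx KO were not called, with edgeR adjusted p of 0.253 and 0.131.

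The hexokinases, which trap glucose as glucose 6-phosphate, differed between the knockouts in opposite directions. Hk2, the inducible isoform, had 229.5 and 218 CPM in Tdt control, 221 and 229.7 CPM in Jmjd3 KO and 288 and 271 CPM in Utx KO. Both Utx KO libraries were above the other 4, with a log2 fold change of 0.32 ± 0.05 against the control (edgeR adjusted p = 0.0372) and -0.31 ± 0.05 for Jmjd3 KO against Utx KO (0.0176). In Jmjd3 KO it was 0.01 ± 0.05, with an interval of -0.11 to 0.14. The call in Utx KO was lost without any 1 of the 6 libraries (log2 fold changes of 0.28 to 0.37). It was also lost in the fit of only the 4 libraries compared (adjusted p 0.0723), with a replicate block (0.0848) and with transcript length offsets (0.0526). That between the knockouts was lost without Jmjd3 KO replicate 1 (0.110), Jmjd3 KO replicate 2 (0.0762) or Utx KO replicate 1 (0.116).

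Hk1, the widely expressed isoform, had 184 and 169 CPM in Tdt control, 196 and 207 CPM in Jmjd3 KO and 156 and 149 CPM in Utx KO. The control lay between the knockouts, with the Jmjd3 KO libraries above it and the Utx KO libraries below it. Neither difference from the control was called, at 0.19 ± 0.06 in Jmjd3 KO (edgeR adjusted p = 0.145) and -0.21 ± 0.06 in Utx KO (0.153). The knockouts differed from each other by 0.40 ± 0.06 with an adjusted p of 0.0111. DESeq2 called Hk1 higher in Jmjd3 KO and lower in Utx KO, with adjusted p of 0.0437 and 0.0394. The Hk1 call between the knockouts was lost when Jmjd3 KO replicate 2 (0.0730), Utx KO replicate 1 (0.0589) or Utx KO replicate 2 (0.0597) was left out.

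The other tested enzymes of the upper steps were not called in any comparison. Gpi1, which isomerises glucose 6-phosphate, had 445 and 442 CPM in Tdt control, 458 and 446 CPM in Jmjd3 KO and 426 and 442 CPM in Utx KO, with log2 fold changes of 0.03 ± 0.04 in Jmjd3 KO and -0.03 ± 0.04 in Utx KO. The phosphofructokinase subunits of the committed step, Pfkl and Pfkp, had changes of 0.09 ± 0.06 and 0.04 ± 0.07 in Jmjd3 KO and 0.04 ± 0.06 and 0.07 ± 0.07 in Utx KO. Tpi1, which interconverts the triose phosphates, had 296 and 285 CPM in Tdt control, 321 and 314 CPM in Jmjd3 KO and 300.2 and 330.4 CPM in Utx KO, with changes of 0.13 ± 0.06 and 0.12 ± 0.06. For these 4 genes the 95% intervals of both comparisons with the control lay between -0.13 and 0.26.

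Aldoa, the muscle aldolase that splits fructose bisphosphate, came closest to a call among them. It had 1546 and 1578 CPM in Tdt control, 1792 and 1773 CPM in Jmjd3 KO and 1506 and 1680.0 CPM in Utx KO, so that both Jmjd3 KO libraries were above the other 4. The log2 fold change in Jmjd3 KO was 0.19 ± 0.05 with an edgeR adjusted p of 0.0935. It was called by DESeq2 (0.0291), in the fit of only the 4 libraries compared (0.0312), and without Utx KO replicate 1 (0.0318) or 2 (0.0331). Mature fibre transcripts were highest in the same 2 libraries, at 8773.1 and 9280.3 CPM against 6130.3 to 7279.4 CPM in the other 4. Whether fibre RNA bears on the Aldoa level was not tested.

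The lower steps, from glyceraldehyde 3-phosphate to pyruvate, had no called gene in any comparison. Gapdh, the dehydrogenase often used as a reference gene, had 3647 and 3392 CPM in Tdt control, 3801 and 3662 CPM in Jmjd3 KO and 3343 and 3760.4 CPM in Utx KO. Pgk1, the first ATP-yielding kinase, had 632 and 623 CPM in Tdt control, 616 and 601 CPM in Jmjd3 KO and 616 and 668 CPM in Utx KO, and Pgam1, the phosphoglycerate mutase, had 549 and 526 CPM in Tdt control, 525 and 521 CPM in Jmjd3 KO and 542 and 576 CPM in Utx KO. Both Jmjd3 KO libraries lay above both controls for Gapdh and below them for Pgk1 and Pgam1, by small margins. The log2 fold changes were 0.08 ± 0.06, -0.04 ± 0.05 and -0.04 ± 0.05 in Jmjd3 KO and 0.01 ± 0.06, 0.03 ± 0.05 and 0.06 ± 0.05 in Utx KO. For the 5 genes of these steps the 95% intervals of both comparisons lay between -0.26 and 0.22.

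Pkm encodes pyruvate kinase in its M1 and M2 forms, which share a gene and differ by 1 alternative exon. The gene had 2188 and 2073 CPM in Tdt control, 2219.5 and 2217 CPM in Jmjd3 KO and 1985 and 2143 CPM in Utx KO, and its log2 fold changes were 0.06 ± 0.04 in Jmjd3 KO and -0.05 ± 0.04 in Utx KO. Transcript Pkm-201, paired in the annotation with the RefSeq transcript of the M2 form, held 86.6% and 86.7% of Pkm TPM in Tdt control, 86.4% and 86.6% in Jmjd3 KO and 88.4% and 87.6% in Utx KO. Pkm-202, paired with the M1 form, held 11.6% and 11.6%, 12.01% and 11.8%, and 9.60% and 10.5%. The M1 share was lowest in both Utx KO libraries, and no test was made on these shares.

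Eno1, the main enolase outside differentiated muscle, had 443 and 396 CPM in Tdt control, 402 and 377 CPM in Jmjd3 KO and 409 and 441 CPM in Utx KO. An intronless copy, Eno1b, had a higher mean level than Eno1 on the TPM scale, 388 against 143 TPM, and had 1062 and 967 CPM in Tdt control, 991 and 994 CPM in Jmjd3 KO and 976 and 1079 CPM in Utx KO. Eno1 shares 27.7% of its 31-base words with Eno1b, so the division of reads between them rests on the quantification, and their sum was 1505 and 1364 CPM in Tdt control, 1394 and 1371 CPM in Jmjd3 KO and 1385 and 1520.4 CPM in Utx KO. Both knockouts overlapped the control for each gene and for the sum. Log2 fold changes of Eno1 were -0.11 ± 0.07 in Jmjd3 KO and 0.02 ± 0.07 in Utx KO, and those of Eno1b were -0.03 ± 0.06 and 0.02 ± 0.06. Pgk1, Pgam1, Pkm and Gapdh share 54.7%, 37.1%, 34.7% and 27.2% of such words with other annotated genes, and their levels carry the same limit. Adding the reads of the near-identical copies, an alternative chosen after the data were seen, moved none of the 3 counts of called genes of the group by over 1.5 times.

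**Figure D4:**
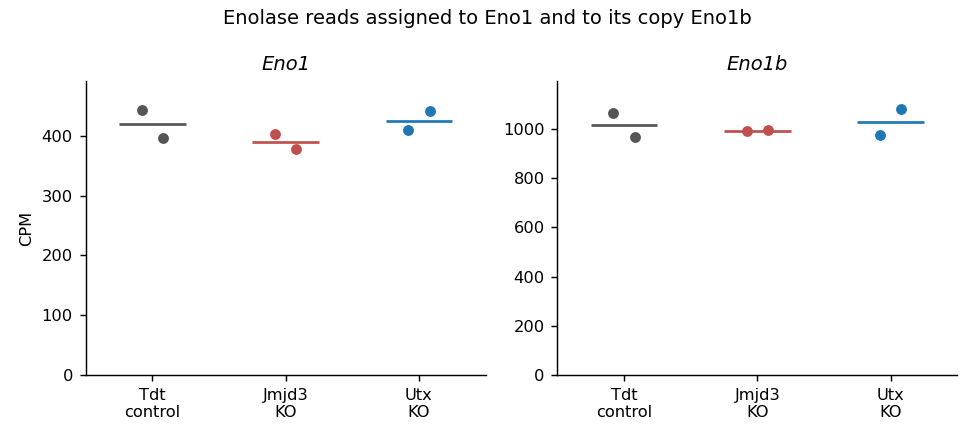
CPM assigned to Eno1 and to its intronless copy Eno1b, with 1 point per library, a line at each group mean and axes that start at 0. Eno1b lies between 967 and 1079 CPM and Eno1 between 377 and 443 CPM.

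The 12 tested glycolytic enzymes together summed to 10285 and 9822 CPM in Tdt control, 10678 and 10479.9 CPM in Jmjd3 KO and 9699 and 10589 CPM in Utx KO. By these CPM sums Jmjd3 KO overlapped Utx KO and exceeded the higher control library by less than the 2 control libraries differed. In TPM the sums were 3839 and 3923 in Tdt control, 4388 and 4290 in Jmjd3 KO and 3773 and 4087 in Utx KO. By the TPM sums both Jmjd3 KO libraries lay above every other library. No test was made on either sum. Of the 12, none was called in Jmjd3 KO and 1, Hk2, in Utx KO.

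In lactate handling the transporters were called and the enzyme was not. Ldha, the lactate dehydrogenase subunit that favours lactate formation, had 1237 and 1256 CPM in Tdt control, 1258 and 1209.8 CPM in Jmjd3 KO and 1276 and 1343 CPM in Utx KO, with log2 fold changes of -0.01 ± 0.04 in Jmjd3 KO and 0.07 ± 0.04 in Utx KO and intervals of -0.11 to 0.08 and -0.02 to 0.16. Slc16a3 encodes MCT4, the lactate exporter of glycolytic cells. It had 21.4 and 22.1 CPM in Tdt control, 37.2 and 33.5 CPM in Jmjd3 KO and 24.8 and 27.8 CPM in Utx KO. Both Jmjd3 KO libraries were above the other 4, and both Utx KO libraries lay above the controls.

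The Slc16a3 log2 fold change was 0.70 ± 0.07 in Jmjd3 KO, 1.63-fold, with an edgeR adjusted p of 0.00448, and the call was kept with each library left out (at most 0.0419). In Utx KO it was 0.27 ± 0.07 with an adjusted p of 0.132. Between Jmjd3 KO and Utx KO it was 0.43 ± 0.07 with 0.0168, a call lost without Jmjd3 KO replicate 1 (0.106), Jmjd3 KO replicate 2 (0.0519) or Utx KO replicate 1 (0.0971), and with transcript length offsets (0.0609). Slc16a3 lies on chromosome 11, which also carries Kdm6b (chr11:69398508-69413675) and P4ha2, a gene called in no comparison. Without the genes of that chromosome 335 genes were called in Jmjd3 KO in place of 503. Whether its place on that chromosome bears on the Slc16a3 level was not tested. Neutrophil markers summed to 331 and 256 CPM in Jmjd3 KO, 217 and 250.3 CPM in Utx KO and 169 and 183 CPM in Tdt control. The part of those cells in the Slc16a3 level was not tested.

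Slc16a1 encodes MCT1, which carries lactate in either direction. It had 270.1 and 289 CPM in Tdt control, 259 and 248 CPM in Jmjd3 KO and 314 and 303 CPM in Utx KO. The groups did not overlap, with Jmjd3 KO lowest and Utx KO highest, but the differences from the control of -0.14 ± 0.05 and 0.14 ± 0.05 were not called (edgeR adjusted p 0.202 and 0.250). Jmjd3 KO against Utx KO gave -0.28 ± 0.05 with an adjusted p of 0.0212, so the 2 transporters differed between the knockouts in opposite directions. That call was lost without any 1 of the 4 knockout libraries, at log2 fold changes of -0.31 to -0.25. It was also lost with a replicate block (adjusted p 0.0530).

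Regulators of flux were not called. Pfkfb3 and Pfkfb4 make or remove fructose 2,6-bisphosphate, the activator of phosphofructokinase, and Pdk1 restrains pyruvate entry into the mitochondrial cycle. Pfkfb3 had 26.4 and 24.1 CPM in Tdt control, 29.3 and 32.7 CPM in Jmjd3 KO and 28.0 and 29.1 CPM in Utx KO, with all 4 knockout libraries above both controls and log2 fold changes of 0.30 ± 0.07 in Jmjd3 KO (edgeR adjusted p = 0.0726, and 0.0260 by DESeq2) and 0.18 ± 0.07 in Utx KO (0.283). Pdk1 had 12.2 and 12.5 CPM in Tdt control, 14.2 and 14.4 CPM in Jmjd3 KO and 11.8 and 13.3 CPM in Utx KO, with changes of 0.21 ± 0.08 and 0.02 ± 0.08. Pfkfb4 had 10.04 and 9.71 CPM in Tdt control, 10.5 and 11.7 CPM in Jmjd3 KO and 9.10 and 10.7 CPM in Utx KO and a change of 0.17 ± 0.10 in Jmjd3 KO.

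Wider lists of the same pathways were counted in the same way. Of 47 other glycolysis genes, 40 were tested and none was called in Jmjd3 KO or Utx KO against the control by edgeR, where 8 (20%) and 4 (10%) had an unadjusted p under 0.05, beside 19.9% and 16.2% of all genes. DESeq2 called 2 of the 40 higher (Eno3 and Pgm1) and 1 lower (Myc) in Jmjd3 KO and none in Utx KO. Over all genes DESeq2 called 620 higher and 415 lower in Jmjd3 KO and 302 higher and 354 lower in Utx KO. Between the knockouts 3 were higher and 1 lower in Jmjd3 KO, 10% beside 7.95% of all genes. Pgm1, which feeds glucose from glycogen into glycolysis, had 70.3 and 67.9 CPM in Tdt control, 79.4 and 78.9 CPM in Jmjd3 KO and 60.9 and 65.6 CPM in Utx KO and a difference of 0.32 ± 0.06 (edgeR adjusted p = 0.0192). Hk3, a hexokinase of blood cells, had 1.58 and 1.75 CPM in Tdt control, 3.42 and 2.39 CPM in Jmjd3 KO and 1.08 and 1.41 CPM in Utx KO and a difference of 1.21 ± 0.23 (0.0228). All 16 macrophage and monocyte markers had a log2 fold change above 0 in Jmjd3 KO against Utx KO, and 8 were called higher. Their part in the Hk3 difference was not tested. The Pgm1 call was lost without Jmjd3 KO replicate 1 (0.105), Jmjd3 KO replicate 2 (0.0938) or Utx KO replicate 1 (0.130). The Hk3 call was lost without Jmjd3 KO replicate 1 (0.121), Utx KO replicate 1 (0.135) or Utx KO replicate 2 (0.0535), with transcript length offsets (0.127) and with protein-coding transcripts only (0.0561, at a log2 fold change of 2.11).

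Eno3, the enolase of muscle fibres, had 236 and 225 CPM in Tdt control, 289 and 300.1 CPM in Jmjd3 KO and 206 and 246 CPM in Utx KO, the Jmjd3 KO libraries being highest. Its difference between the knockouts was 0.38 ± 0.08 (edgeR adjusted p = 0.0328), where 8 of 16 mature fibre markers, Eno3 among them, were also called higher. Myc, a transcription factor that drives glycolytic genes, had 221 and 221 CPM in Tdt control, 184 and 181 CPM in Jmjd3 KO and 260.1 and 218 CPM in Utx KO. The Jmjd3 KO libraries were lowest, at -0.39 ± 0.08 against Utx KO with an adjusted p of 0.0274. Leaving out Jmjd3 KO replicate 1, Jmjd3 KO replicate 2 or Utx KO replicate 1 ended the calls of both Myc (0.122, 0.155 and 0.107) and Eno3 (0.116, 0.170 and 0.116), and the Myc difference was -0.26 without Utx KO replicate 1. Length offsets also ended the Eno3 call (0.0526).

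Of 56 other hypoxia and HIF pathway genes, 53 were tested. In Jmjd3 KO 7 rose and 3 fell (18.9%), in Utx KO 7 rose and 2 fell (17.0%), and between the knockouts 5 were higher and 9 lower in Jmjd3 KO (26.4%), beside 2.95%, 1.7% and 7.95% of all genes. Car9 and Epo, classical HIF targets, and Hif3a had too few reads to be tested. The median log2 fold changes were 0.05 in Jmjd3 KO and 0.09 in Utx KO.

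Hilpda, a HIF target that coats lipid droplets, had 24.6 and 25.7 CPM in Tdt control, 30.6 and 30.2 CPM in Jmjd3 KO and 36.1 and 34.8 CPM in Utx KO. The groups were separate and ordered, with the control lowest and Utx KO highest, at 0.27 ± 0.05 in Jmjd3 KO (edgeR adjusted p = 0.0319) and 0.50 ± 0.05 in Utx KO (0.00934). Ccng2, a cyclin that restrains the cell cycle, had 7.91 and 6.88 CPM in Tdt control, 11.4 and 10.5 CPM in Jmjd3 KO and 12.9 and 13.2 CPM in Utx KO, with rises of 0.57 ± 0.09 (0.0227) and 0.82 ± 0.09 (0.0143). Rora, a nuclear receptor induced by HIF-1, had 33.3 and 32.6 CPM in Tdt control, 39.2 and 39.3 CPM in Jmjd3 KO and 42.9 and 42.7 CPM in Utx KO, with rises of 0.25 ± 0.04 (0.0305) and 0.38 ± 0.04 (0.0156). All 4 knockout libraries lay above both controls for these 3 genes. Jmjd3 KO against Utx KO gave -0.22 for Hilpda (edgeR adjusted p = 0.0368). It gave -0.25 for Ccng2 (0.137) and -0.13 for Rora (0.132), which were not called. The Rora calls in both comparisons were lost without any 1 of the 6 libraries, and each of the Hilpda and Ccng2 calls was lost without 1 or more of the libraries compared. Transcript length offsets ended the calls of Hilpda (0.0633) and Rora (0.185, at 0.19) in Jmjd3 KO, and protein-coding transcripts only ended that of Rora (0.0503). A replicate block also ended the calls of Hilpda (0.0830) and Rora (0.0765) in Jmjd3 KO against the control. The Hilpda call between the knockouts ended with a replicate block (0.0883) and with length offsets (0.0735).

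Pgf, placental growth factor and a relative of Vegfa, had 6.61 and 7.49 CPM in Tdt control, 10.4 and 10.9 CPM in Jmjd3 KO and 5.91 and 6.25 CPM in Utx KO. The Jmjd3 KO libraries were above the other 4, at 0.60 ± 0.09 against the control (edgeR adjusted p = 0.0205) and 0.81 ± 0.09 against Utx KO (0.00438), and its change of -0.21 ± 0.10 in Utx KO was not called. Arnt2, a partner that can pair with HIF alpha subunits, had 10.2 and 8.90 CPM in Tdt control, 9.02 and 8.68 CPM in Jmjd3 KO and 4.96 and 4.87 CPM in Utx KO. It fell in Utx KO by a log2 fold change of -0.96 ± 0.10 (0.00950) and differed by 0.85 ± 0.10 (0.00411) between Jmjd3 KO and Utx KO. With transcript length offsets neither Arnt2 call was made, at -0.69 in Utx KO (0.145) and 0.63 between the knockouts (0.105). Both knockout-to-knockout differences were called with each library left out, whereas each call against the control was lost without some of the libraries compared.

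**Figure D5:**
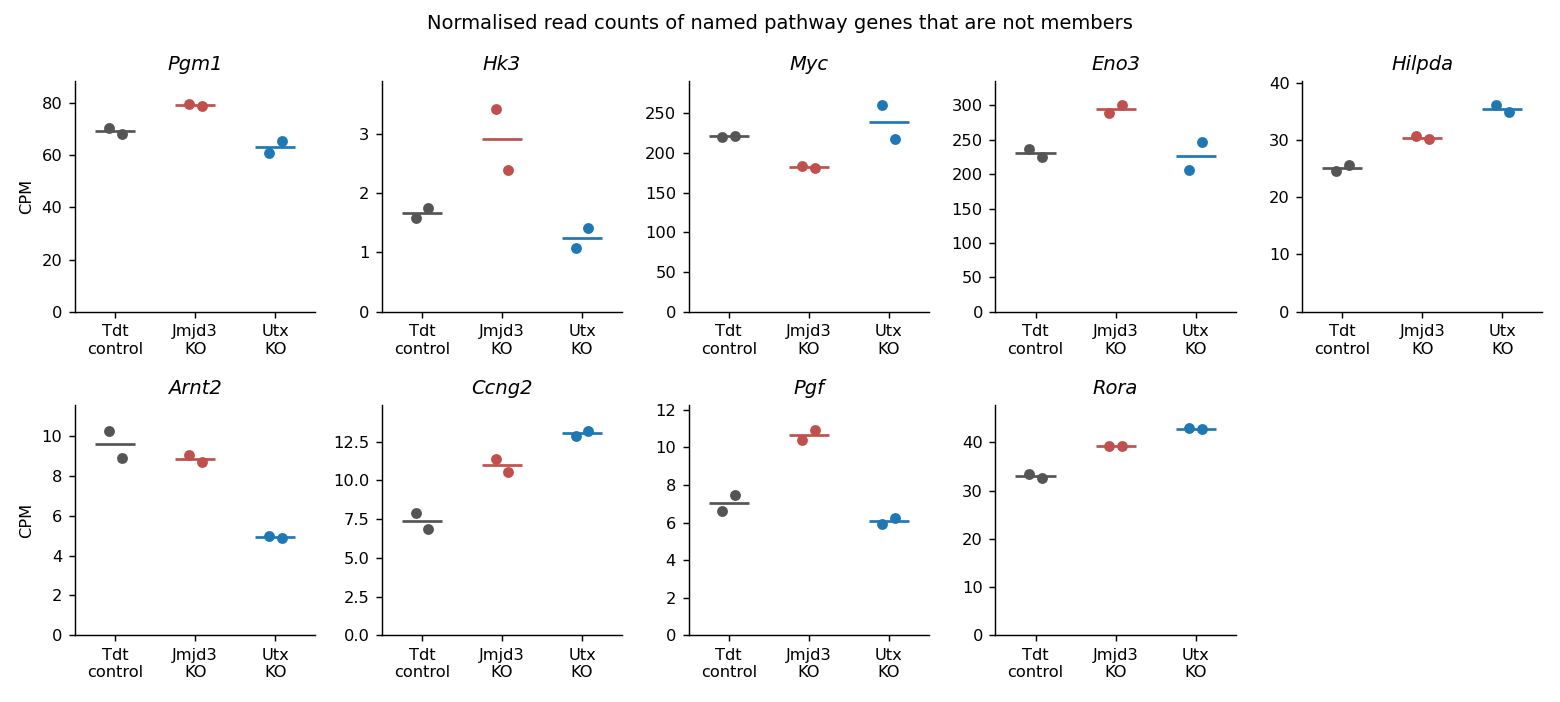
CPM of the 9 named genes of the wider lists, with 1 point per library, a line at each group mean and axes that start at 0. Hilpda, Ccng2 and Rora are higher in every knockout library than in either control library, Arnt2 is low in Utx KO, and Pgf is high in Jmjd3 KO.

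The authors' deposited tables, which give 1 comparison of each knockout with the control, list 31 of the 32 genes with an adjusted p. In the authors' deposited table for Jmjd3, 4 are higher at an adjusted p under 0.05 and none is lower, namely Ddit4 at a log2 fold change of 0.67, Slc16a3 at 0.71, Ndrg1 at 0.43 and Aldoa at 0.16. In the authors' deposited table for Utx, 6 are higher and none is lower, namely Adm at 1.16, Ddit4 at 0.63, Ndrg1 at 0.53, P4ha1 at 0.36, Hk2 at 0.31 and Slc16a3 at 0.30. Aldoa in Jmjd3 KO and Slc16a3 in Utx KO are in those tables and were not called by edgeR here. Deposited log2 fold changes can differ in size from those of edgeR here. In Jmjd3 KO, Ankrd37 has -0.02 there against -0.29 here and Bnip3 0.16 against 0.29, while Slc16a3 has 0.71 against 0.70.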

How the data were processed

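RNA was sequenced from 6 libraries of sorted satellite cells, 2 per genotype, for which the tools listed in the submitters' processing notes, with no role for each, were Salmon 1.1.0, cutadapt 2.6 and DESeq2 1.28.1, and the builds mm10 and GRCm38. Per the file headers, the authors' deposited quantification files hold TPM and estimated counts per transcript. Per the file headers, the authors' deposited comparison tables hold a mean signal per gene (base mean), a log2 fold change with its error, a p-value and an adjusted p-value. The sources used here do not give whether reads were assigned by strand.

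The estimated reads of all transcripts of a gene were added up with GENCODE M21, which matched 139448 of 140748 transcripts and at least 99.6% of the reads of each library, and were rounded. The symbol Aldoa has 2 identifiers, and the second, which was not used, held 38 to 45 reads. All 6 libraries entered 1 fit of edgeR 4.0.16 in R 4.3.3, normalized by TMM after edgeR's low-count filter, with genotype as the only term, and the quasi-likelihood test was used with Benjamini-Hochberg adjustment over all 17027 genes tested. The common biological coefficient of variation was 0.0849, with 3 residual and 4.60 prior degrees of freedom. CPM are reads scaled to the normalized library size. SE was the absolute log2 fold change over the square root of F, and 95% intervals used the t distribution. The fit was also run on simulated data in which every gene had the same spread. That run does not show how calls hold for genes that differ in spread.

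The members and lists were chosen with earlier results of these data known. All 32 genes are described. From each wider list, up to 5 genes with the smallest p among those called in some comparison are named. Kdm6a and Kdm6b are given as the check of the labels. Other settings tried were RLE or upper-quartile scaling, DESeq2 1.42.0, omission of the low-count filter, a filter of 5 CPM in 2 libraries, only the 4 libraries compared, a replicate block, transcript length offsets, protein-coding genes or transcripts only, each library left out, chromosome 11 left out and near-identical copies added. The last 2 were chosen after seeing the data. Promoters are from RefSeq (GRCm38.p6), and words of 31 bases were compared across the M21 transcripts.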

Additional observations from a re-analysis of the deposited data

How the results depend on the processing

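For the 32 genes described, the named genes of the wider lists, Kdm6a and Kdm6b, no called difference changed direction under any alternative run. Direction was not compared for the other genes. Over all genes, 503 were called in Jmjd3 KO against Tdt control, and this became 1870 with no filter for low counts, 1035 with DESeq2, 318 with transcript length offsets, 335 without chromosome 11 and 108 to 424 with 1 library left out (108 and 175 without Jmjd3 KO replicate 1 and 2, 153 and 197 without Tdt control replicate 1 and 2). In Utx KO against Tdt control 289 were called, which became 1387 with no filter, 656 with DESeq2, 118 with only the 4 libraries compared, 131 with length offsets and 17 to 92 with any 1 library left out, lowest without Utx KO replicate 1. Between the knockouts 1353 were called, which became 2837 with no filter, 784 with length offsets and 282 to 1369 with 1 library left out (336 and 325 without Jmjd3 KO replicate 1 and 2, 282 and 674 without Utx KO replicate 1 and 2). The replicate block gave 325, 134 and 949 genes. Deviations of same-numbered libraries correlated at 0.0100, -0.0378 and -0.00557 across genes, so no shared shift of same-numbered libraries was seen. Whether such libraries were collected together is not given in the labels. Of the 32 genes described, the 3 called in Jmjd3 KO became 7 with no filter, 6 with DESeq2 and 2 to 4 with 1 library left out. The 5 called in Utx KO became 8 with no filter (7 higher and 1 lower), 3 with the 4 libraries compared, 3 with length offsets and 1 to 2 with 1 library left out. The 6 called between the knockouts became 1 to 6 with 1 library left out. With the replicate block these counts were 3, 3 and 5. Other scalings moved the median of all genes by at most 0.0106 (log2). Where a library is left out of a pair, the lone library is assumed to vary like the other groups. The cause of these shifts was not tested. For single genes, 2101 values kept their side of the threshold, 112 lost a call and 37 gained one. With 2 libraries per group, a change that was not called is not shown to be absent.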
